A study of Mus musculus with 28 samples.

Results

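The comparison described here set 4 hippocampal RNA libraries of wild-type (WT) mice given navitoclax against 4 of WT mice given vehicle. These 8 libraries were chosen by their genotype and treatment labels from 28 in all, which fall into 7 groups of 4. All animals were female, and the WT animals carry the genotype label BL6/129. The treated group is labelled NAVI, for navitoclax (ABT263), and the control group is labelled Veh. Another WT group received dasatinib with quercetin (DQ), and the other libraries came from 3xTg-AD mice, a line with mutant human amyloid precursor protein and tau transgenes and a mutant presenilin gene, given NAVI, DQ or the vehicles VehN and VehD. Ages, doses, dosing schedules and the composition of the vehicles were not given in the sources used here. All libraries were made from crushed frozen hippocampi, so a value is an average over all cells of the tissue. The labels number the libraries but do not say that each is a separate animal, and p-values then measure only the spread between these libraries.

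Navitoclax occupies the groove of the anti-apoptotic proteins BCL-2, BCL-XL (gene Bcl2l1) and BCL-W (gene Bcl2l2) with which they hold pro-apoptotic partners in check. It is used as a senolytic, a drug that kills senescent cells, which lean on these proteins for survival. The leading genes of the comparison belong in part to the integrated stress response, in which phosphorylation of the initiation factor eIF2α slows translation and favours the transcription factor ATF4. ATF4 turns on genes for amino acid uptake and synthesis, for charging of transfer RNAs, for Atf5 and for Chac1.

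No gene passed the threshold of an adjusted p of 0.05 between NAVI and vehicle in WT. The quasi-likelihood test of edgeR covered 16369 genes, and the lowest adjusted p was 0.238. At an unadjusted p under 0.05 there were 1267 genes (7.74%), of which 629 (3.84%) lay lower and 638 (3.9%) lay higher with NAVI. DESeq2 called 3 genes (D630041G03Rik, St3gal1 and Capn11) and had 1365 at an unadjusted p under 0.05. The limma-voom fit also called 3 genes (D630041G03Rik, Erich5 and Lyplal1) and had 1290 at an unadjusted p under 0.05. The log2 difference had a median of 0.0002 over all genes, its 5th and 95th percentiles were -0.43 and 0.28, and its median standard error was 0.118. An absolute log2 difference of 1 or more was found for 176 genes. The number at an unadjusted p under 0.05 was 780 without NAVI replicate 3 and 625 without vehicle replicate 4, and 1844 and 1830 without vehicle replicates 2 and 3. It was 1265, 1137 and 1260 without NAVI replicates 1, 2 and 4, and 972 without vehicle replicate 1. Counts of list members without a library, given below, have these numbers as their background. Since no gene passed, the genes below are given by their values, as a description.

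**Figure D1:**
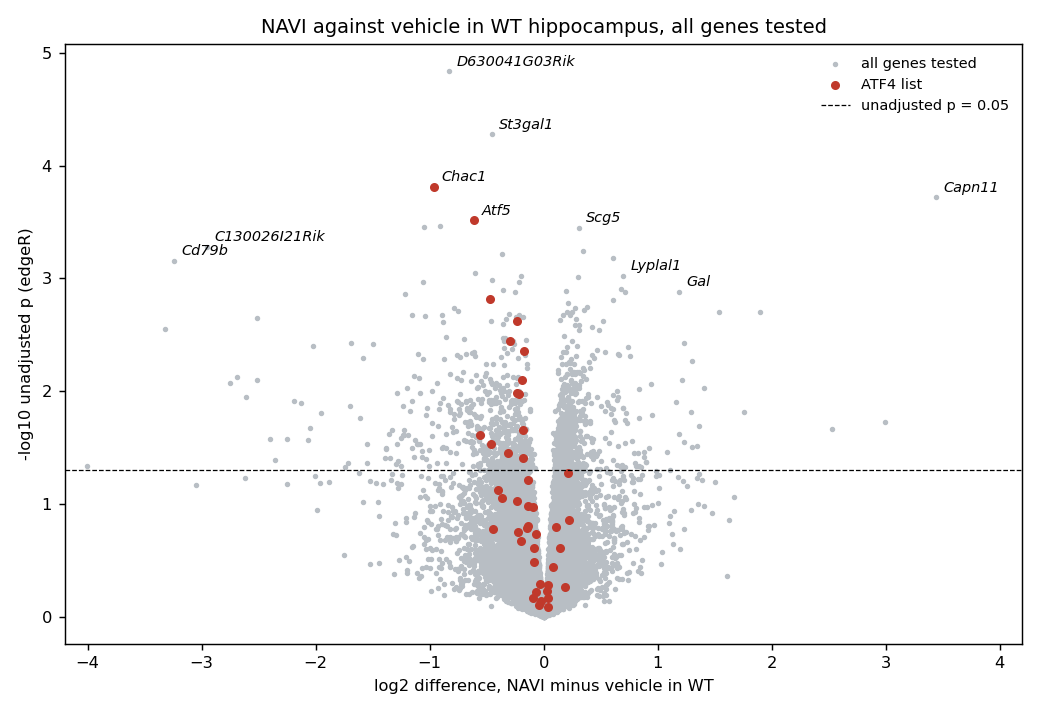
Each point is a gene, with the log2 difference of NAVI minus vehicle in WT on the x axis and the negative log10 of the unadjusted edgeR p on the y axis; genes of the ATF4 list are red and the dashed line marks an unadjusted p of 0.05. The smallest p belonged to D630041G03Rik, followed by St3gal1 and Chac1, and most red points lie left of 0.

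St3gal1, Chac1 and Atf5 led the genes with less RNA after navitoclax that have a known product. St3gal1 encodes a Golgi sialyltransferase that caps O-linked glycans with sialic acid and lies on chromosome 15 (mm10, 67102875 to 67176946). Its normalised counts, as CPM (counts scaled by library size), were 37.8, 45.0, 45.7 and 40.7 in NAVI replicates 1 to 4 and 59.4, 66.6, 51.2 and 55.0 in vehicle replicates 1 to 4. Every NAVI library lay below every vehicle library. The mean was 42.3 ± 3.70 CPM with NAVI (SD, n = 4) and 58.1 ± 6.61 CPM with vehicle (SD, n = 4). The log2 difference was -0.46 with an SE of 0.0938 (edgeR adjusted p = 0.43), and DESeq2 called it (adjusted p = 0.0188). WT mice given DQ had 50.2 to 66.1 CPM of St3gal1, a range that overlapped that with vehicle and lay above every NAVI library. Of the 28 tested sialyltransferase and sialic acid pathway genes, St3gal1 was the only member lower at an unadjusted p under 0.05, and 1 lay higher. Over all genes the shares were 3.84% lower and 3.9% higher, so these counts are near what any genes show. The median of the list was 0.06 on the log2 scale.

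Chac1 encodes a γ-glutamylcyclotransferase that degrades glutathione and is induced through ATF4. It lies on chromosome 2 (119351242 to 119354326). Its levels were 3.30, 2.64, 2.42 and 2.67 CPM with NAVI and 5.66, 4.66, 3.19 and 8.02 CPM with vehicle. The vehicle libraries varied more, and vehicle replicate 3 lay below NAVI replicate 1, so the groups overlapped. The log2 difference was -0.96 with an SE of 0.216 (adjusted p = 0.614 by edgeR). Without vehicle replicate 4, which was the highest, it was -0.71, and without vehicle replicate 3 it was -1.15. DQ libraries had 5.25, 3.16, 3.68 and 4.2 CPM, overlapping both groups.

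Atf5 encodes a transcription factor of the same family as ATF4 that acts in the mitochondrial stress response. It lies on chromosome 7 (44812256 to 44816658). NAVI libraries held 10.98, 11.4, 10.4 and 10.7 CPM and vehicle libraries 19.4, 17.8, 9.24 and 19.98 CPM. The NAVI libraries were nearly equal, 3 vehicle libraries were far above them, and vehicle replicate 3 was below all of them. The log2 difference was -0.61 with an SE of 0.145 (adjusted p = 0.614 by edgeR). Without vehicle replicate 3 it was -0.81 and Atf5 was the only gene that edgeR called (adjusted p = 3.3e-05). After the trend of each library with GC content was removed, the difference in Atf5 was -0.40.

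**Figure D2:**
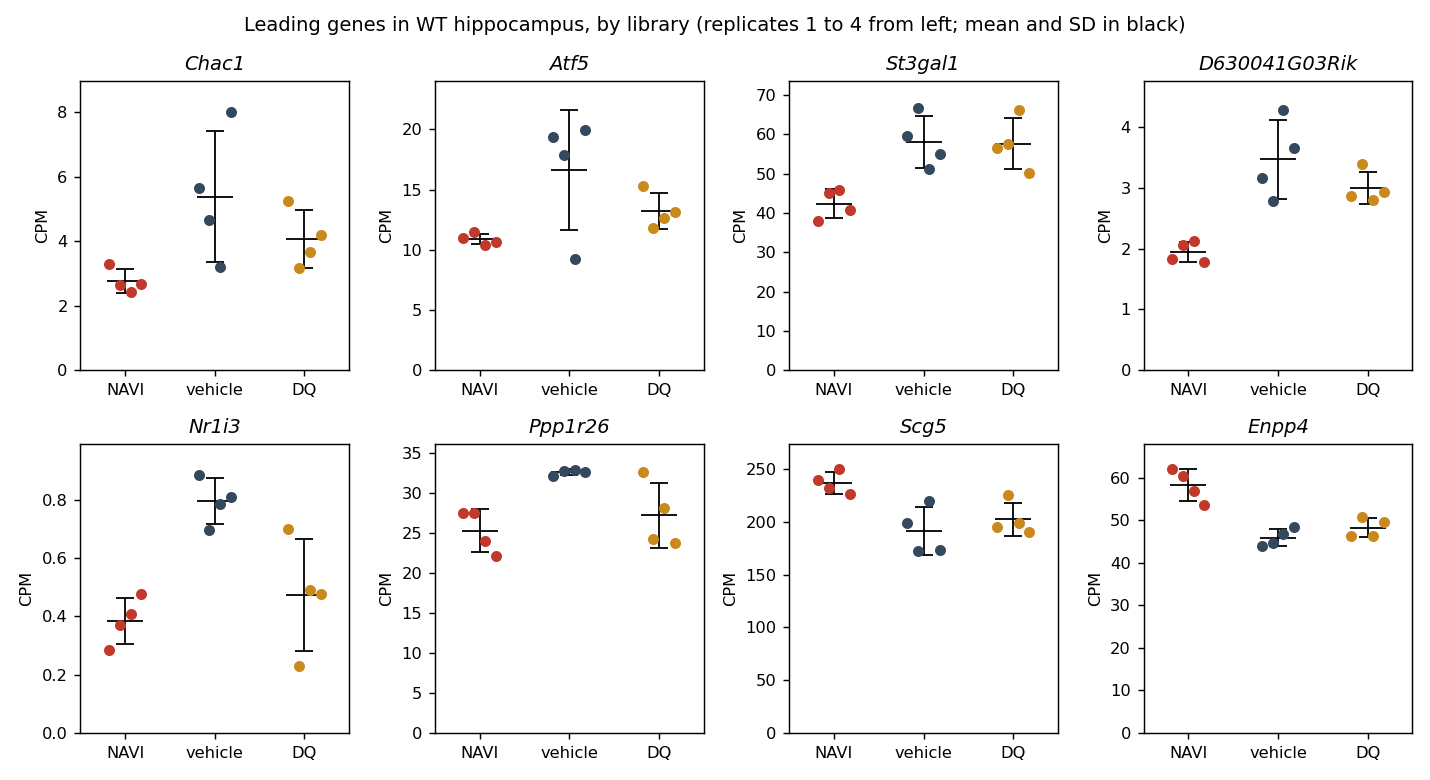
CPM of 8 leading genes in each WT library, on axes that start at 0; points are replicates 1 to 4 from left to right in the NAVI, vehicle and DQ groups, and black bars give the mean and SD of 4 libraries. St3gal1, D630041G03Rik, Nr1i3 and Ppp1r26 lay lower in all NAVI than in all vehicle libraries, Scg5 and Enpp4 lay higher in all, and vehicle replicate 3 was the low vehicle library for Chac1 and Atf5.

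Other genes with small p on the lower side fell into those with separate groups and those set by 1 library. D630041G03Rik, a locus named by its cDNA clone on chromosome 7, was at 1.83, 2.07, 2.12 and 1.78 CPM with NAVI and at 3.16, 2.78, 4.28 and 3.65 CPM with vehicle. The groups did not overlap, and the log2 difference was -0.83 (SE 0.154, edgeR adjusted p = 0.238; DESeq2 adjusted p = 0.00366). Nr1i3, the xenobiotic receptor CAR, had 0.284 to 0.476 CPM with NAVI and 0.696 to 0.886 CPM with vehicle. Ppp1r26, a regulatory subunit of protein phosphatase 1, was at 27.6, 27.4, 24.0 and 22.1 CPM with NAVI against 32.1 to 32.9 CPM with vehicle. Tmem132e, a membrane protein of hair cells and neurons, had 5.93 to 7.71 CPM with NAVI and 8.34 to 12.4 CPM with vehicle. None of the 4 overlapped between groups, a pattern shared by 339 of all tested genes (2.07%) on the lower side and 409 (2.5%) on the higher side.

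Erich5 had 2.25, 2.25, 5.91 and 2.83 CPM with NAVI and 5.75, 6.77, 6.31 and 5.99 CPM with vehicle. NAVI replicate 3 was the only treated library at the vehicle level. Without it the log2 difference went from -0.91 to -1.34 and Erich5 was the only gene that edgeR called (adjusted p = 3.6e-04). C130026I21Rik and Cd79b, a part of the B cell receptor, were set by vehicle replicate 1, which held 2.36 and 8.59 CPM against at most 0.290 and 0.428 CPM in the other 7 libraries. The log2 difference of Cd79b was -3.24 with that library and -0.03 without it. The summed level of 14 lymphocyte genes present in the table was 32.3 CPM in vehicle replicate 1 and 2.24 to 6.37 CPM in the other 7 libraries.

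Genes with more RNA after navitoclax were led by Capn11, Scg5 and Enpp4. Capn11, a calpain protease of the testis, was at 4.66 CPM in NAVI replicate 3 and at 0.0655 to 0.428 CPM in the other 7 libraries, so its log2 difference of 3.44 came from 1 library and was 1.37 without it. Scg5 encodes the neuroendocrine chaperone 7B2, which assists the prohormone convertase PC2. Its levels were 239.8, 232, 249.8 and 227 CPM with NAVI and 199, 172, 219.8 and 174 CPM with vehicle. All NAVI libraries lay above all vehicle libraries, with a log2 difference of 0.31 with an SE of 0.0749 (adjusted p = 0.614 by edgeR). Enpp4, an ectoenzyme that splits dinucleotides, was at 62.1, 60.4, 56.9 and 53.7 CPM with NAVI and at 44.0, 44.7, 46.8 and 48.4 CPM with vehicle. The groups were again separate, and the log2 difference was 0.34 with an SE of 0.0868 (adjusted p = 0.614 by edgeR).

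Abcd2, a peroxisomal transporter of very long chain fatty acids, had 51.7 to 64.1 CPM with NAVI and 40.9 to 49.8 CPM with vehicle. Gm3604 had 1.81 to 2.09 CPM against 0.909 to 1.46 CPM, and Cercam, a collagen galactosyltransferase relative, had 2.81 to 4.58 CPM against 1.92 to 2.46 CPM. The groups of all 3 were separate. Kcnab3, a potassium channel β subunit, overlapped, with 63.1, 39.3, 46.0 and 33.8 CPM against 35.2, 21.8, 31.5 and 30.7 CPM. Lyplal1, an acyl thioesterase relative, was at 13.4, 13.3, 10.3 and 15.6 CPM with NAVI and at 5.86, 6.54, 6.51 and 13.7 CPM with vehicle. Vehicle replicate 4 alone reached the treated range, and without it edgeR called Lyplal1 (log2 difference 1.06, adjusted p = 5.0e-04) and no other gene. Laptm4b, a lysosomal membrane protein, overlapped through NAVI replicate 3 (96.1 CPM) and vehicle replicate 4 (103 CPM). Gal, the neuropeptide galanin, was at 0.350 to 0.873 CPM against 0.204 to 0.371 CPM.

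The ATF4 list holds the factors and targets of the integrated stress response, to which Chac1 and Atf5 belong. Of its 43 tested members, 33 had a log2 difference below 0, against 49.9% of all genes, and the median was -0.14, against 0.0002 over all genes. At an unadjusted p under 0.05, 14 members lay lower and 0 higher, against 3.84% and 3.9% of all genes. None passed the adjusted threshold. The list was chosen with its direction in these data known, so these counts only describe it. Fgf21 and Gdf15, secreted targets of the response, were below the low count filter, with 0 to 3 counts in any of the 8 libraries.

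Among the factors, Atf4 itself was at 98.7, 103, 104 and 102 CPM with NAVI and at 137, 126, 94.1 and 144 CPM with vehicle, a log2 difference of -0.30 (SE 0.0920). As for Atf5, vehicle replicate 3 was below the whole treated group and the other vehicle libraries were above it. The later effectors Ddit3 (CHOP), Trib3 and Atf3 had log2 differences of -0.14, -0.45 and 0.18, with unadjusted p of 0.158, 0.167 and 0.546.

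Enzymes of amino acid and one-carbon metabolism lay mostly below 0, by unequal amounts. Mthfd2, a mitochondrial folate enzyme, had 6.81, 7.08, 6.03 and 6.23 CPM with NAVI and 8.36, 10.4, 6.46 and 10.98 CPM with vehicle. Its log2 difference was -0.47 with an SE of 0.132 (adjusted p = 0.614 by edgeR). Psph, the last enzyme of serine synthesis, was at 14.6 to 15.9 CPM against 15.9 to 20.4 CPM. Asns, the asparagine synthetase often used to read the response, was at 117 to 132 CPM against 120 to 137 CPM, a log2 difference of -0.08 (SE 0.0684).

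Amino acid transporters and transfer RNA synthetases made up most of the remaining lower members. Slc3a2, the shared heavy chain of several amino acid exchangers, was at 94.2, 93.8, 92.0 and 92.5 CPM with NAVI and at 108, 101, 104 and 106 CPM with vehicle. Its groups did not overlap although the difference was small, at -0.17 (SE 0.0556) on the log2 scale. Its partner Slc7a5 had a log2 difference of -0.23 (SE 0.0846), and Slc7a1 and Slc7a3, carriers of cationic amino acids, had -0.18 and -0.56. Mars, the methionyl synthetase, was at 49.4, 49.5, 48.7 and 49.4 CPM with NAVI and at 57.2, 56.3, 52.4 and 66.0 CPM with vehicle, again without overlap. Aars and Cars lay lower by -0.18 and -0.19, while Tars and Eprs were at -0.02 and 0.03. Xpot, which is not a synthetase, and the transporter gene Slc7a11 were both at 0.04. Stc2 (stanniocalcin 2), with 1.65 to 1.83 CPM against 1.95 to 2.92 CPM, was another member with separate groups, and Sesn2, an inhibitor of mTORC1 signalling, had a log2 difference of -0.31.

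The list score, the mean over the 43 members of log2 (CPM + 0.5) relative to the mean of the 8 libraries, was -0.06, -0.05, -0.08 and -0.09 in NAVI replicates 1 to 4. In vehicle replicates 1 to 4 it was 0.14, 0.08, -0.10 and 0.16. Vehicle replicates 1, 2 and 4 were above all treated libraries and vehicle replicate 3 was below all of them. The median log2 difference of the members ranged from -0.10 without vehicle replicate 1 to -0.18 without vehicle replicate 3. Without vehicle replicate 1 or 4, 9 members lay lower at an unadjusted p under 0.05, against 972 and 625 of all genes in either direction. In the DQ libraries of WT, which are compared with the same vehicle libraries, the median was -0.04 and 33 of the 43 members were also below 0.

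ATF4 acts with a C/EBP partner on composite elements that join parts of an ATF and a C/EBP site. Promoter windows of 300 bases (250 before to 50 after the annotated start) were available from RefSeq on GRCm38.p6, the same assembly as mm10, for 34 of the 43 members. The letters TGANGCAA, a core of such elements that was chosen after the windows had been seen, were found on either strand in 9 of these 34 genes (26.5%), against 3.75% of tested genes and 4.22% of all genes with a window. The longer TGATGNAAT, which overlaps it, was found in 4 of 34 (11.8%), against 0.569% of tested genes. The E-box CACGTG was in 5 of 34 (14.7%), against 11% of tested genes, and TGACGTCA, the cyclic AMP response element, in 1 (2.94%), against 3.25%. Of the 14 members that lay lower, 10 have a window, and 2 of these, Chac1 and Aars, hold TGANGCAA. Both are shown, with every match to the 4 motifs in capitals, and the first Atf5 window is shown because Atf5 led the list without a match in either of its windows. A match describes the letters only. The Aars window belongs to a start inside the annotated span of the gene.
Chac1, chr2:119350992-119351291, plus strand: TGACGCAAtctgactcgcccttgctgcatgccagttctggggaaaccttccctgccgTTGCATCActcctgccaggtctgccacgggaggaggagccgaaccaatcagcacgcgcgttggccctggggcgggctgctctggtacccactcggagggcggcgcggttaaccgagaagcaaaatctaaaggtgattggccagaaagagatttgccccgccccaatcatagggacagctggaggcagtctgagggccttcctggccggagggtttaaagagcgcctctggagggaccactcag
Aars, chr8:111033592-111033891, plus strand: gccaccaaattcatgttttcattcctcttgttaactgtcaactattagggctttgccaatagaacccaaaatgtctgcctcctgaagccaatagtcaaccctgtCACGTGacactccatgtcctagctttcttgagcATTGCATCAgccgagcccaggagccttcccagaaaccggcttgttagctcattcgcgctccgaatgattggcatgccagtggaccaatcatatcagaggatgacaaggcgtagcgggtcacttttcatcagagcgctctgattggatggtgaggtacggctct
Atf5, chr7:44816609-44816908, minus strand: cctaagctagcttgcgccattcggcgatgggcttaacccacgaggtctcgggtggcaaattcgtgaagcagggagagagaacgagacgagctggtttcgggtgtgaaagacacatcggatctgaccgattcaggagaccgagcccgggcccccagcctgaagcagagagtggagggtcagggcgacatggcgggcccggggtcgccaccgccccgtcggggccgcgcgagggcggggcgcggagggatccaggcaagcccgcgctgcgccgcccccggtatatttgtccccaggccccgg
The matches in Chac1 begin 250 and 193 bases before the start site, the first on the forward and the second on the reverse strand. In Aars the E-box begins 146 bases before the start and the composite element 113 bases before it. Members that did not lie lower also hold the core, among them Slc7a11 (log2 difference 0.04), Herpud1 (-0.08) and Tars (-0.02).

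No gene of the drug's own target family passed the threshold. Of the anti-apoptotic members, Bcl2 was at 27.4, 29.1, 28.2 and 22.8 CPM with NAVI and at 22.9, 31.0, 24.9 and 24.8 CPM with vehicle. Bcl2l1 was at 103, 91.5, 89.2 and 86.0 CPM against 101, 89.1, 96.3 and 101 CPM, and Bcl2l2 at 204, 204, 200.2 and 205 CPM against 202, 194, 203 and 191 CPM. The groups of all 3 navitoclax targets overlapped, with log2 differences of 0.05 (SE 0.0968), -0.07 (SE 0.0925) and 0.04 (SE 0.0358). Mcl1, a family member that navitoclax does not bind well, was at 93.6, 107, 108 and 103 CPM against 101, 97.6, 88.9 and 81.6 CPM, a difference of 0.16 (SE 0.0853). Over the 7 tested anti-apoptotic members 6 were above 0 (50.1% of all genes) and the median was 0.16. Of these members 0 had an unadjusted p under 0.05 (7.74% of all genes). The median was 0.02 without NAVI replicate 2, 0.08 without vehicle replicate 1 and 0.05 over the 5 members with a mean of at least 50 counts. Bcl2a1a, Bcl2a1b and Bcl2a1d among them are copies with close sequences, whose reads may be split between them, and Bcl2l10 was below the filter.

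Among 12 tested pro-apoptotic members, the effector relative Bok had the smallest p. Its levels were 34.1, 30.3, 24.3 and 34.3 CPM with NAVI and 45.0, 38.6, 31.3 and 49.2 CPM with vehicle, and the groups overlapped through vehicle replicate 3. The log2 difference was -0.42 (SE 0.171, unadjusted p = 0.0223, edgeR adjusted p = 0.614), and it was -0.22 with the GC trend removed. The effector Bax and the sensitizer Bad had -0.23 (SE 0.143) and -0.30 (SE 0.166), and Bax was at 0.0054 with the GC trend removed. The effector Bak1 was at 0.03 and the BH3-only genes Bbc3 (PUMA), Pmaip1 (NOXA) and Bcl2l11 (BIM) at -0.05, 0.05 and 0.05. The median of the 12 was 0.04. Of 13 caspases, caspase inhibitors and apoptosome genes, only Diablo lay higher at an unadjusted p under 0.05 (3.9% of all genes). Diablo is a mitochondrial antagonist of those inhibitors (log2 difference 0.24, SE 0.104). The median of the 13 was 0.07.

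Genes read as marks of senescence showed no shared direction. Cdkn1a (p21) was at 13.8, 8.85, 12.1 and 7.996 CPM with NAVI and at 16.8, 10.02, 10.2 and 12.3 CPM with vehicle, so the groups overlapped in part. Cdkn2a (p16 and ARF) had 0 to 2 counts per library with NAVI and 2 to 4 with vehicle, below the filter. An exact two-sided permutation test of its CPM over 70 assignments gave p = 0.114, where 0.0286 is the smallest that 4 against 4 libraries allow. Of 14 tested cell cycle and senescence genes 7 were below 0, and of 31 tested secretory genes 19, against 49.9% of all genes. The secretory genes had a median of -0.09 and 1 member at an unadjusted p under 0.05 (7.74% of all genes). The secretory median was -0.0036 without vehicle replicate 2. Of 19 p53 targets 13 were above 0, against 50.1% of all genes, with a median of 0.08. Trp53inp1, a p53-induced autophagy factor, was at 23.3, 20.03, 24.2 and 18.1 CPM with NAVI and at 17.8, 17.1, 17.3 and 14.1 CPM with vehicle, without overlap. Mdm2, the ligase that degrades p53, and Rrm2b, a ribonucleotide reductase subunit, had log2 differences of 0.13 and 0.20, and Trp53 itself -0.16.

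**Figure D3:**
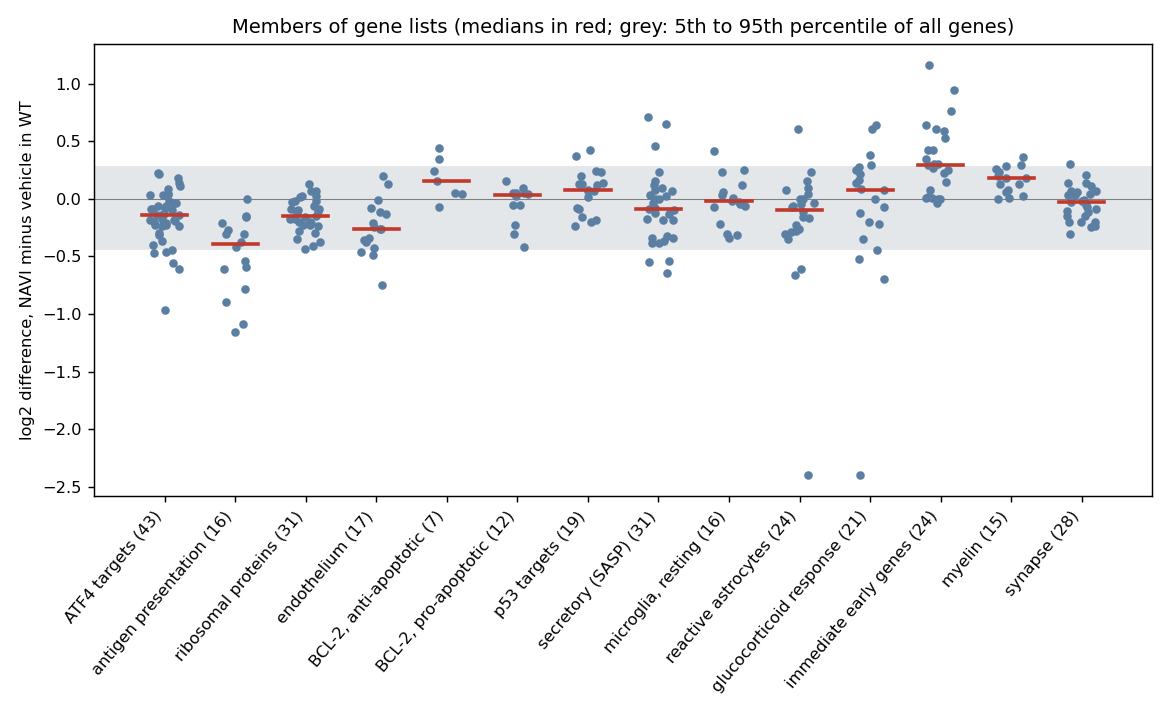
Each point is a member gene of the list named on the x axis (number of tested members in brackets), with its log2 difference of NAVI minus vehicle in WT on the y axis; red bars are list medians and the grey band spans the 5th to 95th percentile of all tested genes. Medians ran from -0.40 for antigen presentation to 0.30 for immediate early genes, and the BCL-2 lists were at 0.16 (anti-apoptotic) and 0.04 (pro-apoptotic).

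Antigen presentation genes had the lowest median of the immune and glial lists. All 16 tested members were below 0 (49.9% of all genes), with a median of -0.40, and 8 of them were lower at an unadjusted p under 0.05 (3.84% of all genes). H2-K1, a class I heavy chain, was at 22.5, 31.8, 29.1 and 32.4 CPM with NAVI and at 39.6, 56.2, 25.1 and 53.4 CPM with vehicle. Cd74, the class II invariant chain, was at 3.01, 5.53, 10.1 and 6.88 CPM against 17.9, 24.4, 3.76 and 11.03 CPM. In both, vehicle replicate 3 was within the treated range and the other vehicle libraries were above it. The scores of 14 meningeal fibroblast and collagen genes were lowest in NAVI replicate 1 (-0.66) and vehicle replicate 3 (-0.32) and highest in vehicle replicate 2 (0.46), as were the antigen presentation scores (-0.57, -0.53 and 0.58). The fibroblast list had 11 of 14 members below 0, a median of -0.25 (-0.04 without NAVI replicate 1) and summed levels of 249.8 to 547 CPM with NAVI and 305 to 603 CPM with vehicle. Its part in the antigen presentation values was not tested. Tapbp, which loads peptides on class I molecules, and Psmb8, an immunoproteasome subunit, had log2 differences of -0.27 (SE 0.0925) and -0.42 (SE 0.175). The DQ libraries had a list median of -0.39 against the same vehicle libraries, with 1 vehicle group shared by both comparisons. For NAVI against vehicle, the number of antigen presentation members at an unadjusted p under 0.05 was 13 without vehicle replicate 3. It was 2 to 5 without vehicle replicate 1, 2 or 4 or NAVI replicate 1. With the GC trend removed it was 4, against 1195 of all genes. Close copies among the H2 genes can share reads.

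Immediate early genes, which neurons switch on within minutes of activity, lay higher. Of 24 tested members 21 were above 0 (50.1% of all genes), the median was 0.30, and 10 were higher at an unadjusted p under 0.05 (3.9% of all genes). Arc, a synaptic capsid-like protein, was at 116, 148, 146 and 116 CPM with NAVI and at 127, 49.7, 61.5 and 72.7 CPM with vehicle. Fos was at 12.5, 37.1, 30.6 and 19.1 CPM against 17.0, 12.3, 12.1 and 10.2 CPM. Vehicle replicate 1 reached the treated range for Arc, and NAVI replicate 1 was within the vehicle range for Fos. The phosphatase gene Dusp1 and the zinc finger gene Egr2 had log2 differences of 0.64 (SE 0.230) and 1.16 (SE 0.433). The DQ comparison, with the same vehicle libraries, had a median of 0.29. The number at an unadjusted p under 0.05 was 5 without NAVI replicate 3 and 6 without NAVI replicate 2 or vehicle replicate 4. Times of day and of tissue collection were not given in the sources used here.

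Endothelial genes were mostly lower, with 15 of 17 below 0 (49.9% of all genes), a median of -0.26 and 4 lower at an unadjusted p under 0.05 (3.84% of all genes). Members below 0 numbered 15 of 17 for DQ against the same vehicle libraries and 13 of 17 for NAVI against VehN in 3xTg. Cldn5, the main claudin of the blood-brain barrier, was at 12.4, 10.6, 11.3 and 14.8 CPM with NAVI and at 25.0, 17.1, 15.8 and 24.8 CPM with vehicle, without overlap. Its log2 difference was -0.75 with an SE of 0.217 (adjusted p = 0.614 by edgeR). Esam, Tie1 and Eng, an adhesion molecule and receptors of vessel wall cells, had -0.37, -0.48 and -0.47, and each overlapped. The summed level of the list was 464 to 483 CPM in the NAVI libraries and 666, 498, 441 and 549 CPM in vehicle replicates 1 to 4. Without vehicle replicate 1 the list median was -0.14 and 1 member had an unadjusted p under 0.05, while without vehicle replicate 3 it was -0.35 with 7 such members. In whole tissue, fewer cells of a type and less RNA per cell cannot be told apart.

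Several other lists showed members on both sides. Among 21 glucocorticoid-responsive genes 6 lay higher and 3 lower at an unadjusted p under 0.05, against 3.9% and 3.84% of all genes. Without NAVI replicate 1 the counts were 3 and 2 and the median went from 0.07 to -0.03. The number lower was 1 without NAVI replicate 2, 5 without vehicle replicate 3 and 0 without vehicle replicate 4. Nr3c1, the glucocorticoid receptor, was at 155, 162, 168 and 154 CPM with NAVI and at 144, 137, 144 and 114 CPM with vehicle, without overlap. Sgk1, a kinase induced by glucocorticoids, was at 257, 174, 134 and 113 CPM against 151, 83.7, 117 and 93.7 CPM. Lcn2, an iron-binding acute phase protein, ranged from 0.250 to 12.6 CPM with vehicle and from 0.327 to 1.87 CPM with NAVI, and its difference of -2.40 had an SE of 1.02. Ribosomal protein genes were below 0 in 25 of 31 (49.9% of all genes), with a median of -0.15 and 5 lower at an unadjusted p under 0.05 (3.84% of all genes). That number was 0 without NAVI replicate 2 or 3 or vehicle replicate 1 or 4, 1 without NAVI replicate 4 or with tissue scores, 8 without NAVI replicate 1 and 13 without vehicle replicate 2. The median was -0.07 with the GC trend removed, and 28 of 31 were below 0 for DQ against the same vehicle libraries. The median of myelin genes was 0.18, with 14 of 15 above 0, and it was -0.07 without NAVI replicate 1. Reactive astrocyte, resting microglia and synaptic lists had medians of -0.10, -0.02 and -0.03. Gfap, the astrocyte filament, was at 338 to 383 CPM with NAVI and 339.7 to 429 CPM with vehicle, and the mouse genes App and Mapt had log2 differences of -0.06 and -0.04.

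**Figure D4:**
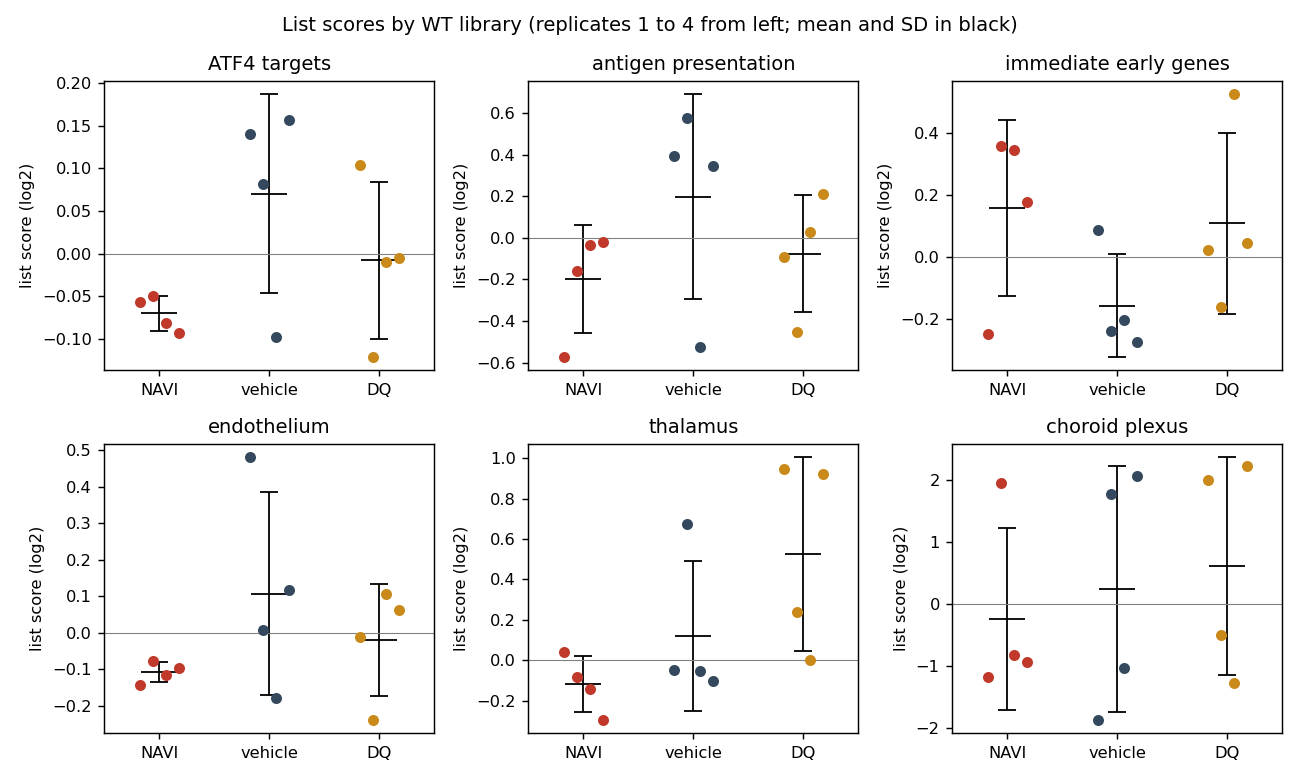
Scores of 6 gene lists in each WT library (mean over members of log2 (CPM + 0.5) relative to the mean of the NAVI and vehicle libraries); points are replicates 1 to 4 from left to right, and black bars are the mean and SD of 4 libraries. For the ATF4 and antigen presentation lists vehicle replicate 3 sits with or below the treated libraries, for endothelium vehicle replicate 1 is highest, and choroid plexus scores form a high and a low set within each group.

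Hippocampal markers were present in all 8 libraries, with 896 to 1132 summed CPM of CA2 and CA3 genes and 501 to 741 of dentate gyrus genes. Striatum markers summed to 196 to 446 CPM with NAVI and 219 to 327 CPM with vehicle. No reference tissue was at hand to say what levels such sums should have. Total counts ran from 33947830 to 54019519. Tissue next to the hippocampus differed between libraries. The choroid plexus gene Ttr was at 3301 CPM in NAVI replicate 2, 3014 in vehicle replicate 2 and 3978 in vehicle replicate 4, against 47.4 to 189.7 CPM in the other 5. All 14 choroid plexus genes had a log2 difference below 0 with a median of -0.64, and 0 had an unadjusted p under 0.05. The median was -2.38 without NAVI replicate 2 and 0.0041 without vehicle replicate 4. With all libraries kept, it was 0.26 with 1 surrogate variable and 0.38 with limma-voom, and in both fits all 14 genes were above 0. The 15 thalamus genes had a median of -0.41, which was -0.07 without vehicle replicate 2. In a fit that also held each library's scores for both tissues, the ATF4 list median was -0.14. There, 13 of its members lay lower at an unadjusted p under 0.05, against 1253 of all genes in either direction.

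The log2 difference followed the GC content of the transcripts across genes. The Spearman correlation over 15590 genes was -0.527, a description across genes that share the same 8 libraries. Genes were placed in 4 equal bins of GC content. In the lowest bin (31.0% to 45.0%) the median log2 difference was 0.10, with 289 genes higher and 20 lower at an unadjusted p under 0.05. In the highest bin (54.5% to 72.5%) it was -0.15, with 23 higher and 331 lower. The slope of a library's log2 level on GC content, per 10 percentage points, was 0.02, -0.03, -0.15 and -0.05 in NAVI replicates 1 to 4 and 0.14, -0.06, 0.02 and 0.22 in vehicle replicates 1 to 4. The group means of the slope did not differ beyond their spread (exact two-sided permutation p = 0.2, with 70 assignments and 0.0286 as the smallest possible). The ATF4 members had a median GC content of 51.3%, against 49.7% over all genes. With the trend removed from each library, their median log2 difference was -0.08 and 35 of 43 were below 0. In that fit 10 members lay lower and 1 higher at an unadjusted p under 0.05, against 1195 of all genes in either direction. There, 0 genes of all passed the adjusted threshold.

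**Figure D5:**
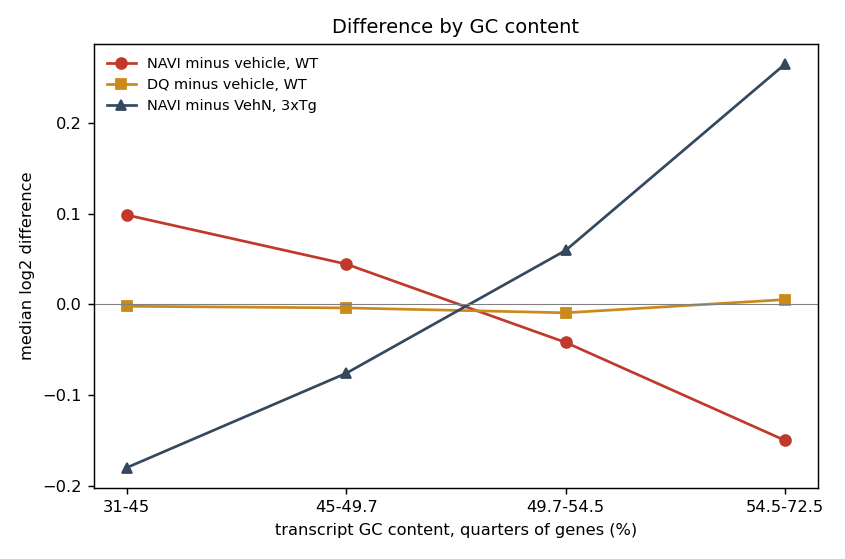
Median log2 difference (y axis) of genes in 4 equal bins of transcript GC content (x axis, percent) for NAVI minus vehicle in WT, DQ minus vehicle in WT and NAVI minus VehN in 3xTg. The WT NAVI line runs from 0.10 to -0.15, the 3xTg NAVI line runs from -0.18 to 0.27, and the WT DQ line stays within 0.01 of 0.

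The effect of navitoclax in WT was tested against its effect in 3xTg mice, where NAVI was set against VehN, the vehicle matched by the last letter of its label. The difference of the 2 effects passed the threshold for 1331 genes (8.13%), of which 964 (5.89%) were more negative and 367 (2.24%) more positive in WT, although neither effect alone had a gene past it by edgeR (29.1% of genes had an unadjusted p under 0.05 in 3xTg). Chac1 was at 3.53, 3.81, 3.60 and 3.32 CPM with VehN and at 4.65, 3.64, 6.18 and 7.04 CPM with NAVI in 3xTg. Its log2 difference was thus 0.59 in 3xTg and -0.96 in WT, and the difference between the genotypes was -1.55 (SE 0.304, edgeR adjusted p = 0.0427). Atf5 had 0.15 in 3xTg and a difference of -0.76 (SE 0.205, edgeR adjusted p = 0.0427), and Cldn5 had 0.36 and -1.11 (SE 0.307, edgeR adjusted p = 0.0427). St3gal1 had -0.08 in 3xTg, and its difference of -0.37 missed the threshold by edgeR (adjusted p = 0.0669) but passed it by DESeq2 (adjusted p = 0.0416). With the GC trend removed it was -0.27 (edgeR adjusted p = 0.349). Of the ATF4 list 6 members were among the negative calls and 0 among the positive, and of the ribosomal proteins 15 and 1. The immediate early genes had none, and their median was 0.31 in 3xTg and 0.30 in WT.

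The 6 genes with the smallest p for this difference between genotypes were Chac1 and 5 others. Wee1, a kinase that delays mitosis, was at 0.59, and Mark2, a kinase that phosphorylates microtubule-associated proteins, at -0.51. Crip2, Dlk2 and Pianp were at -1.04, -1.22 and -0.59. The Spearman correlation of this difference with GC content was -0.687, and that of the effect in 3xTg alone was 0.628. With the GC trend removed from each library no gene was called for this difference (2625 at an unadjusted p under 0.05, edgeR; DESeq2 without that correction called 2544), and Chac1 was at -1.08 (edgeR adjusted p = 0.0791), Cldn5 at -0.56 (edgeR adjusted p = 0.216) and Atf5 at -0.16 (edgeR adjusted p = 0.804). The count was also 0 without NAVI replicate 2 or 4 or vehicle replicate 1 of WT, without NAVI replicate 3 or 4 or VehN replicate 2 or 3 of 3xTg, and 1 without NAVI replicate 3 or vehicle replicate 4 of WT. It was 2799 without vehicle replicate 2 of WT, and 3615 and 4214 without NAVI replicate 2 and VehN replicate 1 of 3xTg. The vehicles of the genotypes have different labels, so a difference between genotypes and one between vehicles cannot be told apart.

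Against DQ, the other treatment given to WT mice, NAVI differed in 11 genes (0.0672%, with 9.84% of genes at an unadjusted p under 0.05), 7 higher (0.0428%) and 4 lower (0.0244%), all of which lie on chromosome 15. The gene with the smallest p was Cthrc1, a secreted collagen-associated protein. It was at 5.32, 5.52, 3.28 and 4.28 CPM with NAVI, at 2.95, 3.78, 2.23 and 2.72 CPM with vehicle and at 0.831, 0.777, 0.673 and 0.819 CPM with DQ, so that every DQ library lay below every other WT library, while NAVI and vehicle overlapped. The log2 difference of NAVI from DQ was 2.56 (edgeR adjusted p = 1.03e-06). Cthrc1 was also the only gene called between DQ and vehicle (0.00611% of genes, lower with DQ, with 3.38% at an unadjusted p under 0.05). Mtmr12, Polr2k, Rpl3, Pkdrej, Baalc and Nudcd1 were also higher with NAVI, and Erich5, Jrk, Card10 and Poldip3 lower, of which Rpl3, Poldip3, Pkdrej, Baalc and Nudcd1 are named here after their values were seen. Erich5, for which DQ libraries had 8.90 to 11.2 CPM, had a difference of -1.53 (edgeR adjusted p = 0.00149). Chromosome 15 also holds St3gal1, Atf4, Laptm4b and Abcd2. For NAVI against DQ, 20.5% of its 604 tested genes had an unadjusted p under 0.05, against 5.68% to 12.2% on the other chromosomes. For DQ against vehicle that share was 7.28% on chromosome 15 and 1.98% to 4.75% on the others. In NAVI against vehicle it was 10.8% on chromosome 15, 11.4% on chromosome 17 and 5.12% to 9.03% on the rest. Chromosome 17 holds H2-K1, Tapbp, Psmb8, Enpp4 and Capn11.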

How the data were processed

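Gene counts of hippocampal RNA were used as deposited by the authors, whole numbers for 24062 genes in 28 libraries. The labels' protocols give 200 ng of total RNA, a stranded mRNA kit and paired reads of 100 bases, and the submitters' processing notes name STAR, Subread, featureCounts and mm10. The sources used here do not state how strand was handled or which annotation was counted. Overlapping genes and close copies may share reads. Groups follow the treatment and genotype labels. Genes were kept by filterByExpr of edgeR (16369 kept, 7693 removed), and a quasi-likelihood model was fitted over all 7 groups with TMM scaling (edgeR 4.0.16, R 4.3.3), so all groups share 1 estimate of spread. P-values were adjusted by Benjamini-Hochberg within a comparison, with a threshold of 0.05. A standard error is the absolute log2 difference divided by the square root of F. CPM values use TMM library sizes. Alternatives used other scalings and filters, limma 3.58.1, DESeq2 1.42.0, a surrogate variable (sva 3.50.0), tissue scores, a GC correction, a replicate block and leaving out each library. Total counts in the 8 libraries compared ran from 33947830 to 54019519. The least different pair of replicates had a chi-square of 21.1 per degree of freedom, above sampling noise. GC content was known for 15590 genes and RefSeq (GRCm38.p6) positions for 15467. The genes named are the 10 with the smallest p in each direction, with no floor on their level beyond the low count filter. To these were added all ATF4 list and BCL-2 family members as measured and up to 4 per other list. The 6 with the smallest p in each further comparison and a few fixed genes complete the set. The members and the 47 lists were chosen with earlier results of these data known. The fits were tested on simulated data, which held no GC trend and no differences in tissue next to the hippocampus. Whether equal replicate numbers mark pairs is taken up with the other alternatives. Some results are not reported here.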

Additional observations from a re-analysis of the deposited data

Results flagged for a closer look

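In 19 of 242 groups of 4 libraries (7.85%), 1 library stood apart by Dixon's criterion (a gap to the nearest library that takes up most of the group's range), which chance meets in about 1 in 20 groups. With NAVI, replicate 3 was the high one for Capn11 (4.66 CPM) and Erich5 (5.91 CPM), and the low one for Laptm4b (96.1 CPM), Mars (48.7 CPM), Bcl2l2 (200.2 CPM) and Mapt (547 CPM). NAVI replicate 4 was the high one for Stc2 (1.83 CPM), Wars (95.7 CPM), Pck2 (26.9 CPM) and Polr2k (14.8 CPM). NAVI replicate 1 was low for Trib3 (0.240 CPM), and NAVI replicate 2 was high for Ttr (3301 CPM). With vehicle, replicate 1 was high for C130026I21Rik (2.36 CPM) and Cd79b (8.59 CPM), and replicate 3 was low for Aldh18a1 (17.8 CPM). Vehicle replicate 4 was high for Lyplal1 (13.7 CPM) and Cebpb (2.43 CPM) and low for Bnip3 (75.2 CPM) and Trp53inp1 (14.1 CPM).

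For 33 of 121 named genes examined, against 8.13% of all genes, the effect of NAVI in WT differed from that in 3xTg by the test of the difference itself. Pianp, Chac1, Wee1, Crip2, Mark2 and Dlk2 were named for having the smallest p in this test, so their part of the count was fixed by that choice. Many of the others were named for a small p in NAVI against vehicle in WT, which is a part of this difference. Some were named for NAVI against DQ, which shares the NAVI libraries. A share above that of all genes was thus partly built in, and it is no result about the named genes. The log2 difference between the effects was positive for 12 genes, namely Scg5 (0.35), Lyplal1 (0.86), Abcd2 (0.39), Gm3604 (1.0035), Laptm4b (0.28), Errfi1 (0.42), Trp53inp1 (0.82), Mdm2 (0.29), Rrm2b (0.44), Wee1 (0.59), Cthrc1 (1.06) and Nudcd1 (0.46). It was negative for 21 genes. Those among the leading genes were D630041G03Rik (-0.81), Chac1 (-1.55), Atf5 (-0.76), Erich5 (-1.04), Nr1i3 (-1.22), Ppp1r26 (-0.64) and Tmem132e (-0.82). Those of the stress response, apoptosis and endothelium were Mars (-0.33), Slc7a5 (-0.42), Aars (-0.43), Ddit3 (-0.43), Bax (-0.71) and Cldn5 (-1.11). Ribosomal protein genes were Rps28 (-1.09) and Rpl37 (-0.57), whose many processed copies can share reads. The others were Pianp (-0.59), Crip2 (-1.04), Mark2 (-0.51), Dlk2 (-1.22), Jrk (-0.49) and Poldip3 (-0.35).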

How the results depend on the processing

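Between NAVI and vehicle in WT the number of genes past the threshold was 0 under the other edgeR settings that kept all 8 libraries, 3 with limma-voom and 3 with DESeq2, and 0 to 1 when 1 library was left out. For the difference between the NAVI effects in WT and 3xTg, 1331 genes became 0 with no low count filter, 0 with only the compared groups and 0 with the GC trend removed, against 3245 with tissue scores, 3632 with 1 surrogate variable, 2007 with limma-voom and 2544 with DESeq2. Leaving out 1 library gave 0 to 4214, so this count rests on the setting. For NAVI against DQ in WT, 11 became 1 with only the compared groups, 1 with only the 12 WT libraries, 39 with limma-voom and 38 with DESeq2, and 5 to 20 when 1 library was left out. For NAVI against vehicle in WT, the alternatives gave 9 calls of named genes, each with the sign it had in the main fit. Signs of the genes called in the other comparisons were not compared between settings. Correlations of same-numbered NAVI and vehicle libraries, as deviations from their group means, were 0.118, 0.2, -0.0714 and -0.0114. Those of libraries with different numbers ran from -0.461 to 0.378. With so few libraries, these values cannot decide whether equal numbers mark pairs. With the replicate block the counts were 0 (1826 at an unadjusted p under 0.05), 3315 and 13 in the same order.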
